A study of Mus musculus with 6 samples.

Results

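Polycomb proteins, nucleosome remodellers and histone-modifying enzymes were followed as a group of 41 genes in mouse embryonic stem cells lacking 3 linker histone genes. The group was chosen by name as well-known chromatin factors, with earlier results of these data known. Of the 41 genes, 37 had at least 1 probe set that the array's annotation lists with that gene alone, among 50 such probe sets out of 12488 on the array. Suv39h1, Ep300 and Ssrp1 were not analysed here, and Cbx3 was represented by 2 probe sets listed together with a Cbx3 pseudogene, which are described apart. Embryonic stem cells are pluripotent cells derived from the early embryo. The cells were of 3 kinds by their labels. Triple-null line 1 and triple-null line 2 each lacked H1c, H1d and H1e, which current annotation calls H1f2, H1f3 and H1f4, and the third was wild type. Total RNA of exponentially growing cells was hybridised to 2 arrays per line, numbered as experiment 1 and experiment 2. Separate cultures behind the arrays of a line are not mentioned in the labels, nor whether a line is 1 clone, so the p-values speak to array-to-array spread, possibly technical, and no more.

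Linker histones sit on the outside of the nucleosome and help to fold chromatin. Polycomb complexes keep developmental genes silent: Polycomb repressive complex 2 (PRC2) methylates a lysine of histone H3, and Polycomb repressive complex 1 (PRC1) compacts chromatin and attaches ubiquitin to histone H2A. Heterochromatin protein 1 (HP1) binds another methylated lysine of histone H3, deacetylases and acetyltransferases set histone acetylation, and remodellers move nucleosomes with energy from ATP. In embryonic stem cells the Polycomb complexes hold lineage genes in a repressed but inducible state. The comparison asks whether the genes of this machinery were expressed differently when the linker histone genes were missing.

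Array medians ran from 34.1 to 39.5 intensity units. Background on each array was taken as the highest of 19 bacterial and yeast control probe sets, which was 9.1 to 17.2. H1f2 measured 11.1 and 11.5 in line 1 and 13 and 14.4 in line 2, against 70 and 68.2 intensity units in wild-type cells, a difference that passed the threshold (limma adjusted p = 0.00119). H1f2 was above background on 2 of the 4 null arrays and on both wild-type arrays, so the size of its difference is not given. The position of its probes relative to the deleted sequence is not stated in the labels. The probe sets of H1f3 and H1f4 were not above background on any array and check nothing. All 12 embryonic stem cell markers were above background on all 6 arrays, with a summed signal of 8971 to 9937 in the null cells and 8370 to 8488 in wild-type cells. Of 12 markers of extraembryonic endoderm, 10 were above background on every array, and their sum was 1627 to 1806 in the null cells and 2623 to 2710 in wild-type cells. For 12 fibroblast markers, of which 6 were above background on every array, the sums were 890.1 to 986.5 in the null cells and 1140 to 1184 in wild-type cells. No marker of these 3 lists was at or below background on all arrays. The marker sums of the null and wild-type arrays did not overlap. A sum follows its brightest markers, and the markers of a list did not all go the same way. Of the endoderm markers, Krt8 averaged 909 in null and 1483 in wild-type cells, and Sox17 22.95 and 22. Of the fibroblast markers, Acta2 averaged 345 and 561, and Col1a2 238 and 219. Of the embryonic stem cell markers, Fbxo15 averaged 341 and 163, and Klf4 185 and 214. Fbxo15 and the endoderm marker Col4a2, at 194 and 349, passed the threshold (limma adjusted p = 0.0465 and 0.0433). No other marker of the 3 lists passed. The part of the marker sums in the values below was not tested. In such bulk RNA, fewer cells of a type and less RNA per cell cannot be told apart.

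None of the chromatin factors passed the threshold in the null cells. Of the 37 genes, 36 passed the filter on dim signals (a mean over all arrays of at least 20.9 intensity units) and were tested with limma on log2(intensity + 2), a scale that understates the differences of dim genes. For the average of the null lines against wild type, 0 of 36 had an adjusted p under 0.05, against 0.416% of all 7453 probe sets tested. At an unadjusted p under 0.05 the count was again 0 of 36, against 12.7% of all probe sets. The smallest adjusted p was 0.398. The log2 differences had a median of 0.07, with 20 above and 16 below 0. The median over all probe sets was -0.01, and 47.3% of them lay above 0.

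The spread left room for small differences. The 95% intervals from limma, which are not adjusted for the number of genes, lay within a 2-fold difference in both directions for 35 of the 36 genes (92.2% of all probe sets) and within 1.5-fold for 27 (61.3%). The exception at 2-fold was Bmi1. The chromatin factors were brighter than most probe sets, with a median signal of 279 against 99.1 intensity units, and had a median standard error of 0.12 against 0.14 on the log2 scale. Each gene is given here by its brightest probe set.

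**Figure D1:**
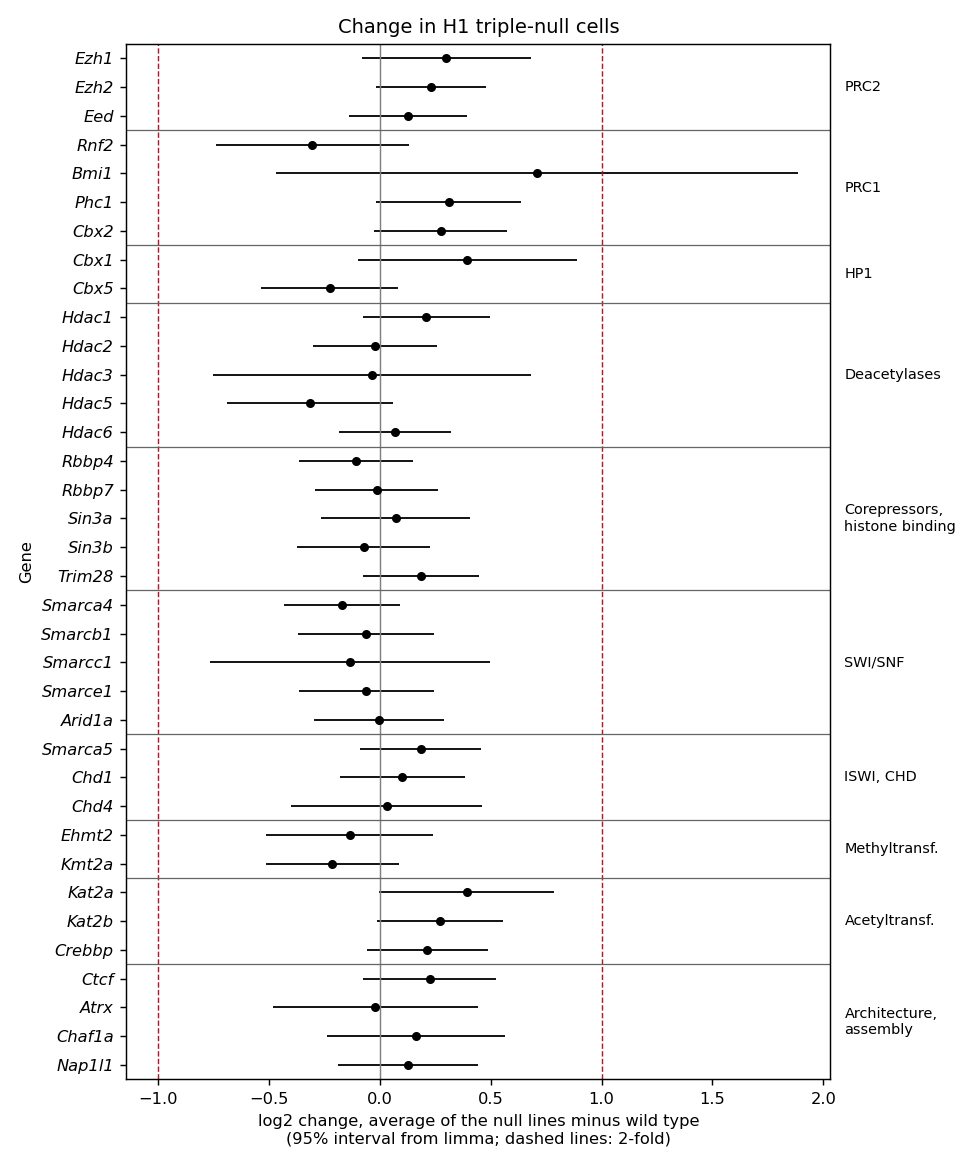
Log2 difference between the mean of both triple-null lines and wild type (x axis) for each of the 36 chromatin factors tested, listed by role (y axis). Points are limma estimates and bars 95% intervals. Every interval includes 0, and only that of Bmi1 reaches beyond a 2-fold difference (dashed lines).

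Of the 36 genes, 5 had all 4 null arrays above both wild-type arrays (11% of all probe sets did) and 4 had all 4 below (12% of all probe sets). The genes above were Ezh2, Eed, Phc1, Hdac6 and Kat2b, and those below Cbx5, Hdac5, Smarca4 and Kmt2a. These shares are close to those over the whole array.

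Promoter windows are shown for the 3 Polycomb genes whose null arrays all lay above wild type and for Hdac5, the deacetylase whose null arrays all lay below. Each runs over the 250 bases before the start of the gene, from RefSeq on the GRCm38.p6 build, 5′ to 3′ on the minus strand, on which all 4 genes lie. Capitals mark a GC box (GGGCGG) or a CCAAT box (CCAAT), searched on both strands. The 2 motifs do not overlap in these windows. The windows are chr6:47595031-47595280 for Ezh2, chr7:89980977-89981226 for Eed, chr6:122340228-122340477 for Phc1 and chr11:102230173-102230422 for Hdac5.
Ezh2: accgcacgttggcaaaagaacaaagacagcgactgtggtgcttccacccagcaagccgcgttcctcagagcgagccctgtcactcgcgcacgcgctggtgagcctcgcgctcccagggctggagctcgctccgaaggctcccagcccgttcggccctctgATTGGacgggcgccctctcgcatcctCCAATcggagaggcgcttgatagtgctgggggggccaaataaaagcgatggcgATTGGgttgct
Eed: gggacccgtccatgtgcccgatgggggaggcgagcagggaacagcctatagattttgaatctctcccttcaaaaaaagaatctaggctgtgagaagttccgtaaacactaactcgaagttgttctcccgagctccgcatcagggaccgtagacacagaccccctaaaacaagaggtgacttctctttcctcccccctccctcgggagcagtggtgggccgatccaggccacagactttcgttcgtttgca
Phc1: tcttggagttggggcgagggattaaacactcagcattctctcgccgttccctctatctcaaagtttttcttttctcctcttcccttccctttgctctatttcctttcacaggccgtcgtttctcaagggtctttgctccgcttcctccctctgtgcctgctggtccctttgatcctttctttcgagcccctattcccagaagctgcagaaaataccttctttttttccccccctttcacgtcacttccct
Hdac5: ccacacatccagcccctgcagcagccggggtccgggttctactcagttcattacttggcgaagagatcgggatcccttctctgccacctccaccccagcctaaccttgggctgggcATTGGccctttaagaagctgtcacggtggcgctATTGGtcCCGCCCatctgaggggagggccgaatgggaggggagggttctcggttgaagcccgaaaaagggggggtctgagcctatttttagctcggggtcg

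The window of Ezh2 held 23 CpG dinucleotides and 3 CCAAT boxes, the first bases of which lie 90, 64 and 11 bases before the start. Hdac5 held 12 CpGs, 2 CCAAT boxes and 1 GC box. Neither motif was found in the windows of Eed, with 12 CpGs, or Phc1, with 8. The table held 38 windows for 32 of the 37 genes. Among these, 73.7% held a GC box and 34.2% a CCAAT box, and the median was 20.5 CpGs. Among all 32851 windows, the shares were 32.7% and 33.9% and the median was 6 CpGs. A match describes the letters of the window and is not a site shown to be used.

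Ezh1, Ezh2 and Eed of PRC2 had positive log2 differences, and none passed. Rbbp4 and Rbbp7, which PRC2 shares with other complexes, are given with the corepressors and lay below 0. Among PRC2 genes of the wider list described below, Suz12 was at 0.04 ± 0.20 and Mtf2 at 0.31 ± 0.13 (SE). Jarid2 was at 0.07 ± 0.11 and Phf1 at -0.01 ± 0.12 (SE). Ezh2, the catalytic subunit that dominates in dividing cells, measured 350 and 349.5 in line 1 and 316.4 and 316.8 in line 2, against 290.3 and 277.1 intensity units in wild-type cells. All 4 null arrays lay above wild type, those of line 1 highest. The means were 333 ± 19.1 (SD, n = 4) in null and 284 ± 9.33 (SD, n = 2) in wild-type cells, a log2 difference of 0.23 ± 0.10 (SE, limma adjusted p = 0.424), or 0.20 within experiment 1 and 0.26 within experiment 2. Ezh1, the alternative catalytic subunit, measured 44.4, 51, 45.1 and 48.8 in null and 32.4 and 44.6 in wild-type cells. The second wild-type array lay among the null values, and the log2 difference was 0.30 ± 0.16 (SE, limma adjusted p = 0.487). Eed, which binds the methylated histone tail and is needed for the activity of the complex, measured 393 to 445.9 in null and 364.2 and 390.8 in wild-type cells. Its groups were separated by less than the spread within either, with a log2 difference of 0.13 ± 0.11 (SE).

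The PRC1 genes differed among themselves. Phc1, a polyhomeotic subunit that helps the complex to polymerise, measured 456.9 and 585.4 in line 1 and 513.1 and 535.1 in line 2, against 427.8 and 411.9 intensity units in wild-type cells. All null arrays were higher, and the first array of line 1 was nearest to wild type. The means were 523 ± 53.3 (SD, n = 4) in null and 420 ± 11.2 (SD, n = 2) in wild-type cells, a log2 difference of 0.31 ± 0.14 (SE, limma adjusted p = 0.421), 0.18 within experiment 1 and 0.44 within experiment 2. Cbx2, the chromodomain subunit that compacts chromatin, measured 68.4 and 64 in line 1 and 83.6 and 81.4 in line 2, against 67.1 and 55.1 in wild-type cells. Only line 2 stood clear of wild type, and in the null average the log2 difference was 0.27 ± 0.12 (SE, limma adjusted p = 0.431). Its dimmer probe set was at 0.20. Bmi1, a partner of the ubiquitin ligase, measured 20.8 to 43.4 in null cells and 30.9 and 8.6 in wild-type cells. The second wild-type array was below background for Bmi1, and its log2 difference of 0.71 ± 0.48 (SE, limma adjusted p = 0.596) was the least certain of the group. Ring1, one of the ligase genes, was above background on 1 array of line 1 and none of the other 5, was below the filter and was not tested.

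Rnf2 (also Ring1b), the main ubiquitin ligase of PRC1, had the largest difference between the null lines among the 36 genes. Its brightest probe set, 97506_at, measured 265.6 and 192.5 in line 1 and 126.3 and 157.6 in line 2, against 239.4 and 204.9 in wild-type cells. Line 2 lay below wild type on both arrays, while line 1 spanned it. The log2 difference from wild type was 0.03 ± 0.21 (SE, limma adjusted p = 0.982) in line 1 and -0.64 ± 0.21 (SE, limma adjusted p = 0.271) in line 2. Line 1 minus line 2 was 0.67 ± 0.21 (SE, unadjusted p = 0.0167, limma adjusted p = 0.627), 1.06 within experiment 1 and 0.29 within experiment 2. The other probe sets did not repeat it. 93164_at measured 101.7 and 70.1 in line 1, 88.7 and 125.6 in line 2, and 100.6 and 84.7 in wild-type cells, and the dim 95912_at between 21 and 32.4 on all arrays. Against wild type, line 2 was at 0.19 and 0.09 by these probe sets.

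Among HP1 genes, Cbx1 (HP1 beta) measured 131.8 and 144.5 in line 1 and 172.2 and 115.5 in line 2, against 122.6 and 91.2 in wild-type cells. The groups overlapped through the second array of line 2, and the log2 difference was 0.39 ± 0.20 (SE, limma adjusted p = 0.48). Cbx5 (HP1 alpha) measured 227, 198.1, 185.3 and 217.4 in null and 234 and 249.7 in wild-type cells by probe set 95614_at. All null arrays were lower, at a log2 difference of -0.23 ± 0.13 (SE, limma adjusted p = 0.51). Its second probe set, 104259_at, ranged only from 160 to 172.4 over all 6 arrays, with a log2 difference of 0.05 ± 0.10 (SE), so the probe sets of Cbx5 disagreed in sign. The 2 probe sets listed with both Cbx3 (HP1 gamma) and the pseudogene also parted. 100405_at measured 115.3 to 150.3 in null and 84.5 and 110.9 in wild-type cells (log2 difference 0.36 ± 0.16, SE, limma adjusted p = 0.424), and 160272_at measured 313.3 to 466.2 in null and 374.7 and 386.4 in wild-type cells (-0.11 ± 0.17, SE, limma adjusted p = 0.84).

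**Figure D2:**
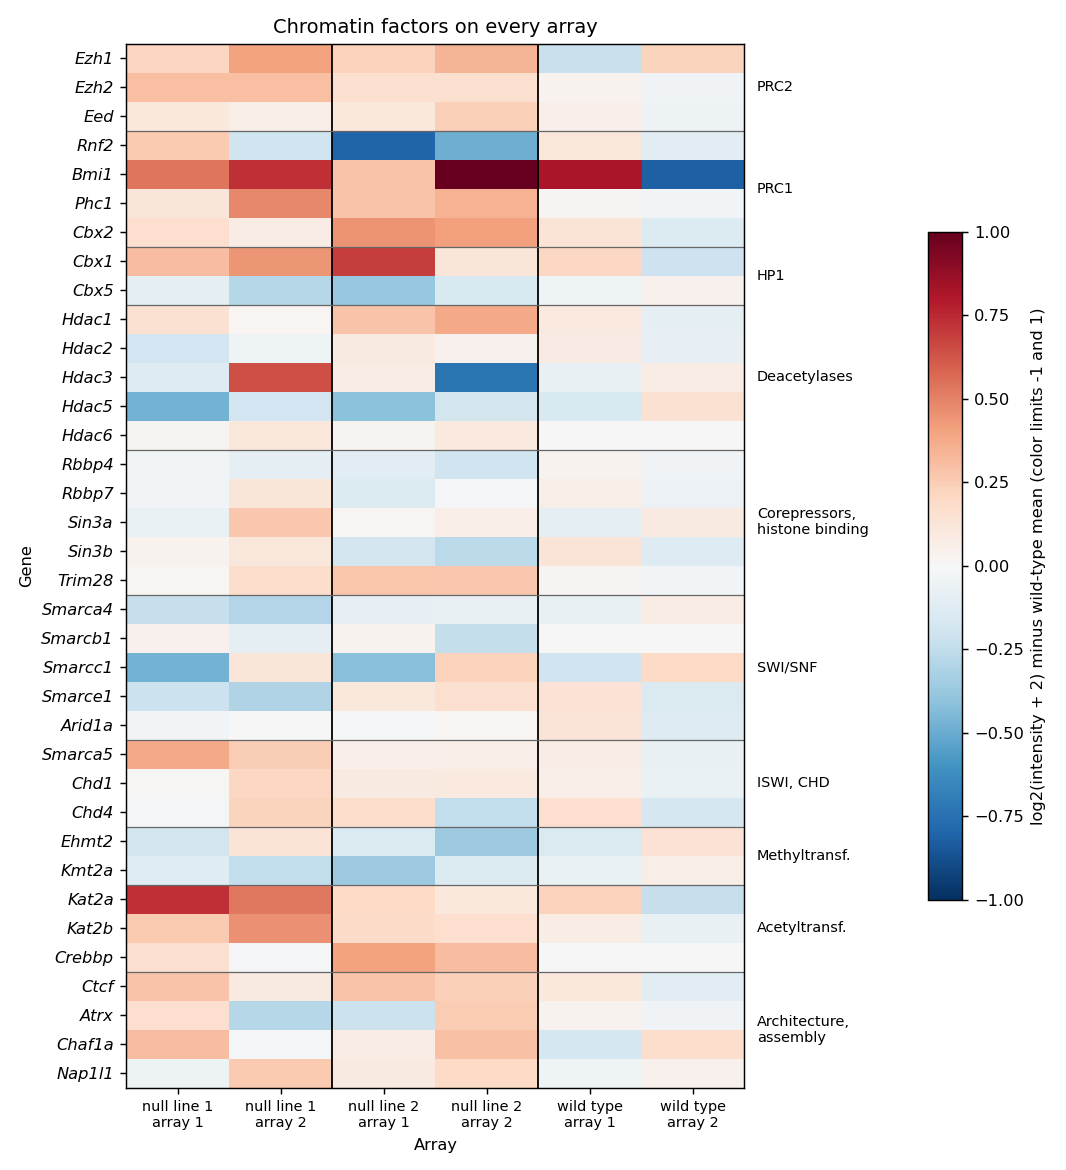
Log2(intensity + 2) of the 36 chromatin factors tested on each array, minus the wild-type mean of the gene (color), with the arrays of null line 1, null line 2 and wild type from left to right (x axis) and genes by role (y axis). The strongest colors are those of Bmi1, Hdac3, Rnf2, Kat2a and Cbx1, and the wild-type arrays stand at opposite ends of the scale for Bmi1.

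Of the 5 histone deacetylase genes, Hdac5 alone had all null arrays below wild type and Hdac6 alone all above. Hdac5, a class II enzyme that shuttles between nucleus and cytoplasm, measured 133.6 and 163.3 in line 1 and 140.1 and 163.7 in line 2, against 167.8 and 207.4 in wild-type cells. The nearest null and wild-type arrays were close together. Its log2 difference was -0.32 ± 0.15 (SE, limma adjusted p = 0.455), -0.29 within experiment 1 and -0.34 within experiment 2. Hdac1, a class I enzyme of several corepressor complexes, measured 489.5 and 446.6 in line 1 and 538.8 and 575.1 in line 2, against 471.4 and 412.6 in wild-type cells. Line 2 was the higher line, and the null average was at 0.21 ± 0.12 (SE, limma adjusted p = 0.513). Its close relative Hdac2 was at -0.02 ± 0.11 (SE), with null arrays from 324.5 to 395.4 and wild-type arrays at 391.9 and 350.1. Hdac6, a mainly cytoplasmic tubulin deacetylase, measured 384.5 to 408.9 in null and 376.1 and 378.8 in wild-type cells, a log2 difference of 0.07 ± 0.10 (SE). Hdac3, the enzyme of the NCoR corepressor, varied from 56.7 to 150.3 among the null arrays, around wild-type values of 90.8 and 100.7. Those 2 extreme values came from the second arrays of the null lines.

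By their brightest probe sets the corepressor and histone-binding genes stayed within narrow limits, with 95% intervals inside 1.5-fold for all 5. Trim28 (KAP1), which recruits silencing enzymes to zinc finger proteins on endogenous retroviruses, measured 2942.4 and 3267.4 in line 1 and 3511.5 and 3483.8 in line 2, against 2953.4 and 2842.8 in wild-type cells. Line 2 stood above wild type and line 1 did not stand clear of it. The log2 difference was 0.18 ± 0.11 (SE, limma adjusted p = 0.529) in the null average and 0.27 ± 0.12 (SE, limma adjusted p = 0.397) in line 2. The histone chaperones Rbbp4 and Rbbp7, shared by PRC2 and the deacetylase complexes, were at -0.11 ± 0.11 and -0.01 ± 0.11 (SE). The scaffolds Sin3a and Sin3b were at 0.07 ± 0.14 and -0.07 ± 0.12 (SE).

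The 5 genes of the group that belong to SWI/SNF (BAF), the remodelling complex that opposes Polycomb at many genes, were at log2 differences of -0.17 to -0.01 in the null average, and none passed. This did not extend to every subunit or line. In line 2, 2 of the 5 lay above 0. Subunits in the wider list went both ways in the null average. Smarcd1 was at 0.29 ± 0.11, Smarcd2 at 0.31 ± 0.12, Actl6a at 0.21 ± 0.12 and Brd7 at 0.16 ± 0.12 (SE). Arid2 was at -0.10 ± 0.14 and Pbrm1 at -0.14 ± 0.23 (SE). Smarca4 (Brg1), the ATPase of SWI/SNF, measured 456.1 and 436.2 in line 1 and 507.1 and 508.1 in line 2, against 509.7 and 562.5 in wild-type cells. Line 1 was lowest, and line 2 lay just under the lower wild-type array. The log2 difference was -0.17 ± 0.11 (SE, limma adjusted p = 0.566) in the null average and -0.26 ± 0.12 (SE, limma adjusted p = 0.559) in line 1. Smarce1, a DNA-binding subunit, measured 38 and 35.7 in line 1, 48 and 49.9 in line 2, and 49.3 and 40 in wild-type cells. Line 1 lay below line 2, with a log2 difference of -0.39 ± 0.15 between them (SE, limma adjusted p = 0.627). The core subunits Smarcb1 and Smarcc1 were at -0.07 ± 0.13 and -0.14 ± 0.26 (SE), and the targeting subunit Arid1a at -0.01 ± 0.12 (SE). Smarcc1 was lower on the experiment 1 array of every line. It measured 234.2, 243.9 and 283.5 on the experiment 1 arrays of line 1, line 2 and wild type, and 355.9, 383.1 and 376.3 on those of experiment 2.

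Smarca5 (Snf2h), the ISWI ATPase that spaces nucleosomes, measured 282 and 256.3 in line 1 and 223.8 and 225.2 in line 2, against 227.5 and 205.5 in wild-type cells. Line 1 lay above both others, at a log2 difference of 0.31 ± 0.13 from wild type (SE, limma adjusted p = 0.525), 0.31 within experiment 1 and 0.32 within experiment 2. Its dimmer probe set, 93701_at, was at -0.07 in line 1. The remodellers Chd1, needed for the open chromatin of embryonic stem cells, and Chd4, the ATPase of the NuRD deacetylase complex, were at 0.10 ± 0.12 and 0.03 ± 0.18 in the null average (SE).

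The 3 acetyltransferase genes tested had positive log2 differences. Kat2a (Gcn5), the acetyltransferase of the SAGA coactivator, had the smallest p of all 36 genes and measured 137 and 118.6 in line 1 and 94.4 and 88.2 in line 2, against 96.5 and 69.3 in wild-type cells. Line 1 was higher than both others, and line 2 lay between the wild-type arrays. The log2 difference was 0.39 ± 0.16 in the null average (SE, unadjusted p = 0.052, limma adjusted p = 0.398), 0.63 ± 0.19 in line 1 (SE, limma adjusted p = 0.372) and 0.15 ± 0.19 in line 2 (SE, limma adjusted p = 0.766). Its relative Kat2b (Pcaf) measured 108.5 and 124.5 in line 1 and 103.6 and 101.9 in line 2, against 94.9 and 85.9 in wild-type cells. All null arrays were higher, with line 1 above line 2, and the log2 difference was 0.27 ± 0.12 (SE, limma adjusted p = 0.417), 0.16 within experiment 1 and 0.38 within experiment 2. Crebbp (CBP), a broad coactivator, measured 70.2 and 61.8 in line 1 and 83.7 and 78.3 in line 2, against 62.6 and 62.9 in wild-type cells. Only line 2 stood clear, at 0.36 ± 0.13 (SE, limma adjusted p = 0.309), and the null average was at 0.21 ± 0.11 (SE, limma adjusted p = 0.487).

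Apart from the PRC2 enzymes, the methyltransferases of the group that were tested were Kmt2a and Ehmt2, both at negative log2 differences. In the wider list described below, Setdb1, another methyltransferase of repressed chromatin, was at 0.34 ± 0.23 (SE, limma adjusted p = 0.591). Of the same list, Kmt5a was at -0.40 ± 0.26, Carm1 at -0.14 ± 0.12, Prmt1 at -0.07 ± 0.13 and Smyd5 at -0.005 ± 0.13 (SE). Kmt2e, set here by its gene name alone, was at -0.42 ± 0.14 (SE). Kmt2a (Mll1), a methyltransferase that opposes Polycomb, measured 89.1 and 81.5 in line 1 and 75.1 and 88 in line 2, against 92.4 and 101.7 in wild-type cells by probe set 104569_at. All null arrays were lower, at -0.22 ± 0.12 (SE, limma adjusted p = 0.521). By 104568_at the values were 52.3 and 52.4 in line 1, 68.4 and 62.2 in line 2, and 59.4 and 63.9 in wild-type cells. By this probe set line 1 alone was lower, and line 1 minus line 2 was -0.31 against 0.07 by the brighter one. Ehmt2 (G9a), a methyltransferase of repressed chromatin, was at -0.14 ± 0.16 (SE), with arrays from 285 to 402.3 in null cells and at 331.6 and 405.5 in wild-type cells.

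Of the genes of chromatin architecture and assembly, Ctcf, which anchors chromatin loops and insulators, measured 213.8 and 186.4 in line 1 and 213.3 and 206.3 in line 2, against 188.4 and 162.4 in wild-type cells. The second array of line 1 overlapped wild type, and the log2 difference was 0.22 ± 0.12 (SE, limma adjusted p = 0.507). The assembly factors Chaf1a and Nap1l1 were at 0.16 ± 0.17 and 0.13 ± 0.13 (SE), and a second probe set of Nap1l1, 98586_at, at 0.27 ± 0.14 (SE, limma adjusted p = 0.487). Atrx, a remodeller of heterochromatin that helps to deposit a variant of histone H3, measured 29.6 to 43.9 in null and 35.7 and 37.5 in wild-type cells, at -0.02 ± 0.19 (SE). Atrx, Hdac6 and Rbbp7 are the X-linked genes of the group, and their log2 differences spanned -0.02 to 0.07.

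**Figure D3:**
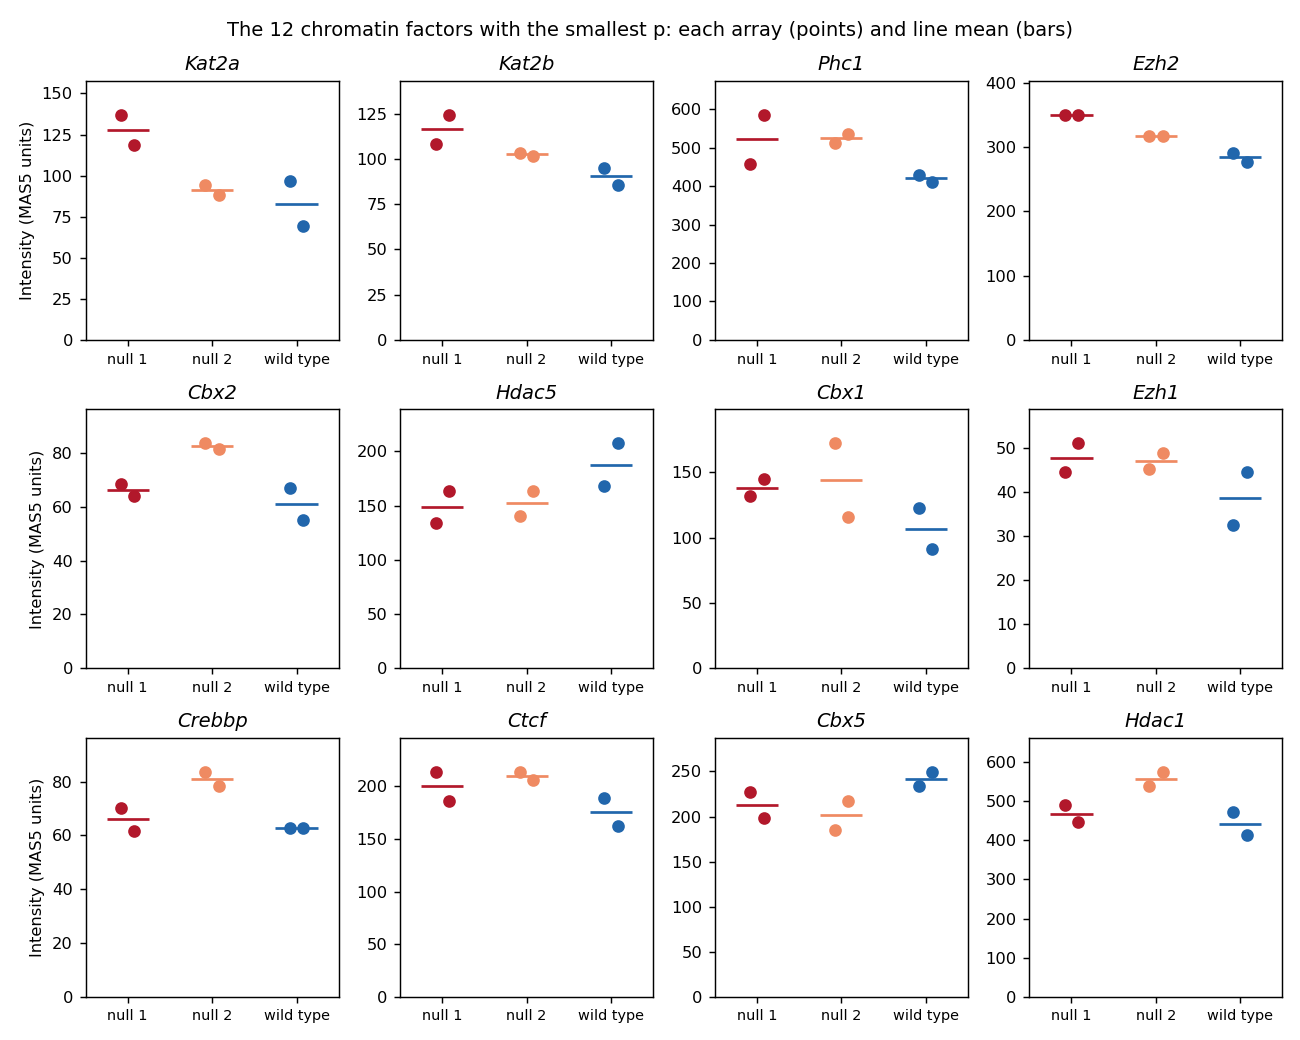
Intensity (y axis, from 0) of the 12 chromatin factors with the smallest p in the null average, on each array of null line 1, null line 2 and wild type (x axis, points), with the line mean as a bar. Kat2b, Phc1 and Ezh2 lie above wild type on all null arrays, and Hdac5 and Cbx5 below. For the others the null and wild-type points overlap.

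Against wild type, each null line alone gave no call among the 36 genes. Line 1 had 0 genes past adjusted p 0.05 (0.134% of all probe sets) and 3 at an unadjusted p under 0.05 (9.49% of all probe sets), which were Kat2a, Kat2b and Ezh2, all higher. Line 2 had 0 (0.255%) and 4 (14.1%), which were Cbx2, Crebbp and Hdac1, higher, and Rnf2, lower. In line 1, 8 genes had both arrays above wild type (18.9% of all probe sets) and 5 both below (20.6%). In line 2 these counts were 13 (23.6%) and 7 (25.2%). The median log2 difference was 0.08 in line 1 and 0.07 in line 2, against -0.01 over all probe sets in each. Both comparisons use the same 2 wild-type arrays.

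The test of line 1 against line 2 asks whether the null lines differ from each other. Of the 36 genes 0 passed (0.0268% of all probe sets), and 3 had an unadjusted p under 0.05 (7.55%): Rnf2 and Kat2a, higher in line 1, and Smarce1, lower in line 1. The others next by p, Crebbp and Cbx2, were at -0.29 ± 0.13 and -0.31 ± 0.14 (SE, limma adjusted p = 0.627 and 0.637). The median over the 36 genes was 0, with 18 above and 18 below. Both line 1 arrays lay above line 2 for 7 genes (18.9% of all probe sets) and below it for 8 (20.2%).

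**Figure D4:**
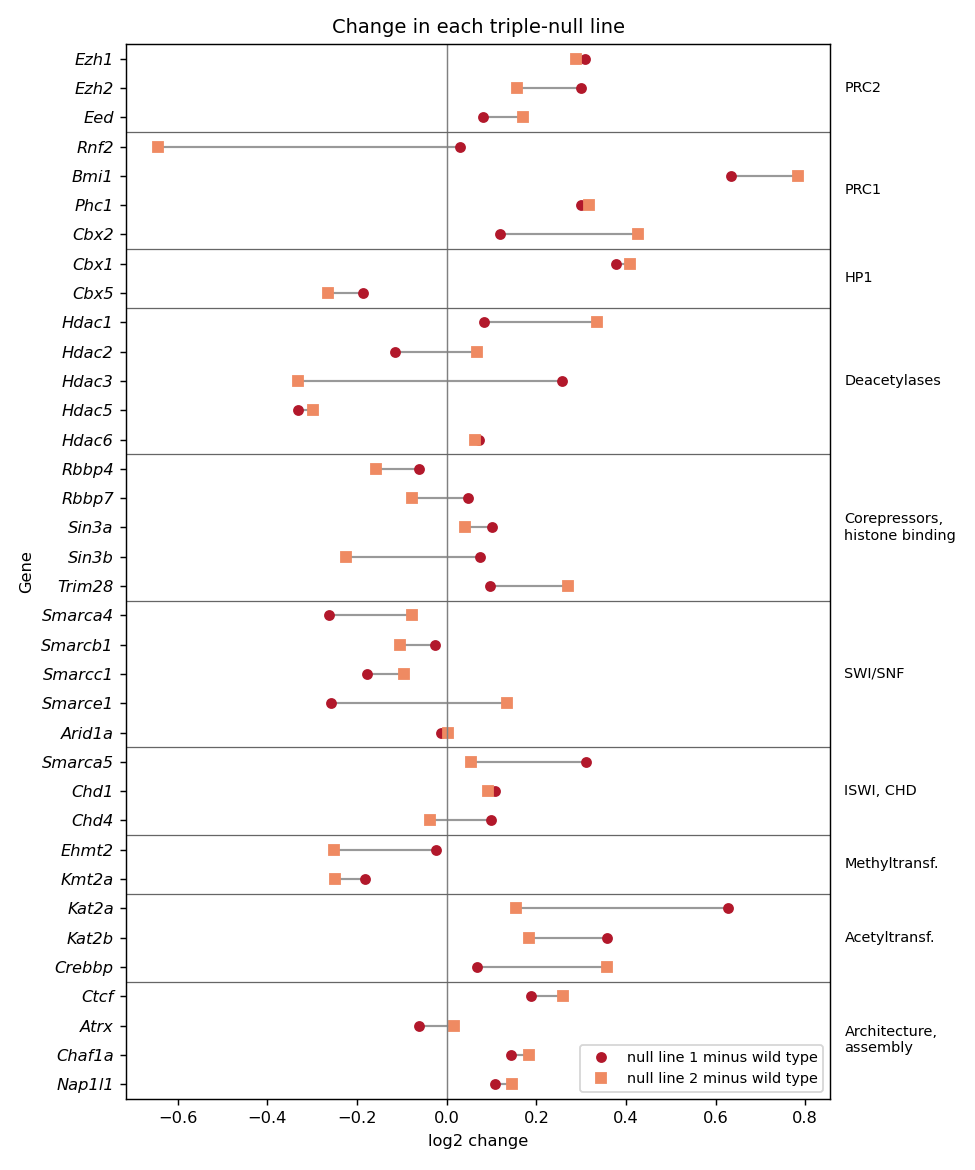
Log2 difference from wild type (x axis) of each of the 36 chromatin factors (y axis, by role) in null line 1 (circles) and null line 2 (squares), joined by a line. The widest gaps are those of Rnf2 (0.03 and -0.64), Hdac3 (0.26 and -0.33) and Kat2a (0.63 and 0.15), and none of the gaps passed.

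Related genes can be set side by side. Ezh1 and Ezh2 were at 0.30 and 0.23 in the null average, and Kat2a and Kat2b at 0.39 and 0.27. Cbx1 and Cbx5 were at 0.39 and -0.23, and Hdac1 and Hdac2 at 0.21 and -0.02. Differences within these pairs were not tested.

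A wider list of 134 other chromatin genes held 64 that were on the array and tested, out of 75 on it. None of the 64 passed in the null average (0.416% of all probe sets did). At an unadjusted p under 0.05 there were 6, a smaller share than the 12.7% of all probe sets. The median log2 difference was 0.05. Of the 64 genes, 42 lay above 0 and 22 below, a larger share above 0 than the 47.3% of all probe sets. On the higher side the smallest p values were those of the histone chaperone Asf1b (0.42 ± 0.13, SE, limma adjusted p = 0.286) and of the SWI/SNF subunits Smarcd2 (0.31 ± 0.12) and Smarcd1 (0.29 ± 0.11). Asf1b measured 75.5 and 60.3 in line 1 and 84.3 and 78.7 in line 2, against 54.7 and 55.5 in wild-type cells. On the lower side they were Phc2, a polyhomeotic relative of Phc1 (-0.43 ± 0.13, SE, limma adjusted p = 0.275), the deacetylase Sirt2 (-0.50 ± 0.16) and Kmt2e (-0.42 ± 0.14). Phc2 measured 47.3 and 46.1 in line 1 and 31.7 and 40.6 in line 2, against 56.2 and 55.8 in wild-type cells, where Phc1 lay the other way. Between the null lines 0 of the 64 passed in limma, and 4 had an unadjusted p under 0.05, against 7.55% of all probe sets. Hira, a chaperone of a variant of histone H3, and Kmt2e were higher in line 1 by log2 differences of 0.51 ± 0.16 and 0.46 ± 0.16 (SE), and Dpy30, a subunit of Mll-type complexes, and Jarid2, a PRC2 partner, were at -0.37 ± 0.14 and -0.33 ± 0.13 (SE), each with a limma adjusted p of 0.627.

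**Figure D5:**
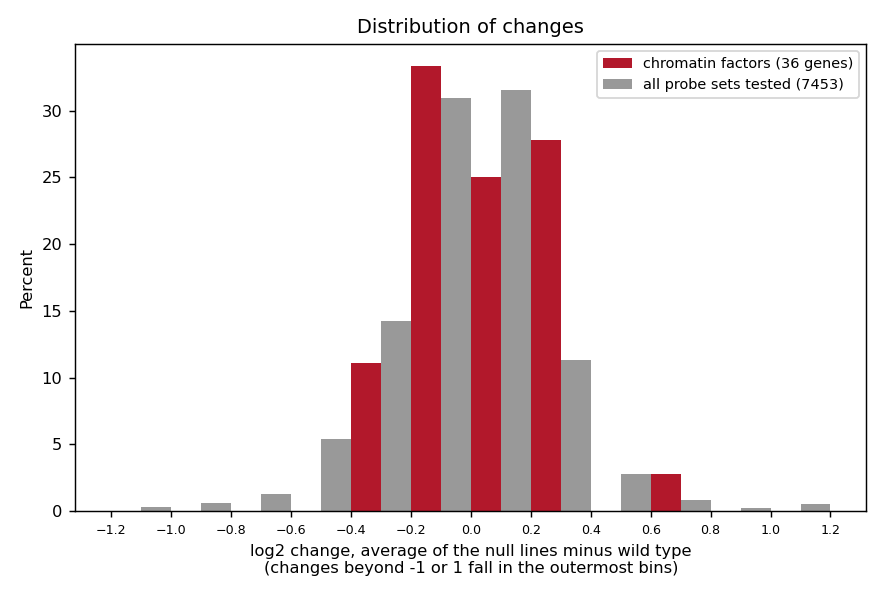
Share (y axis, percent) of the 36 chromatin factors and of all 7453 probe sets tested by log2 difference between the null average and wild type (x axis, bins of 0.2, larger differences in the outermost bins). Of the factors, 35 lie between -0.4 and 0.4 and 1, Bmi1, between 0.6 and 0.8. The lowest and highest bins hold 0.31% and 0.51% of all probe sets, shares too small to set 36 genes apart from the array. The median size of the difference, whatever its sign, is 0.17 for the factors and 0.15 for all probe sets. By this measure the differences of the factors are not smaller.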

How the data were processed

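Total RNA was measured on 6 arrays, 2 for each of 3 lines. The authors deposited 1 intensity per probe set and array on a linear scale, from MAS5, per the submitters' processing notes. The sources used here give no version of MAS5. The trimmed mean of every array was 100.1, so the deposited scaling was kept.

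Gene names came from the platform annotation, with symbols updated through RefSeq (GRCm38.p6): 10855 probe sets have 1 gene, 396 have several and 1237 have none. The 66 control probe sets were left out. Probe sets with a mean at or above the 40th percentile (20.9) were tested as log2(intensity + 2), the pseudocount being the 10th percentile of all values, with limma 3.58.1 in R 4.3.3 (a mean per line, lmFit and eBayes). Adjusted p-values are Benjamini-Hochberg values over 7453 probe sets. An exact permutation test of 2 arrays against 4 could reach no two-sided p under 0.0667. The procedure was tested on simulated data in which every difference put in was at least 2-fold, so that test does not cover smaller ones. Plots used matplotlib 3.10.9 and Python 3.11.15.

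The genes and lists were chosen with earlier results of these data known. Array values are given for the 12 genes with the smallest p in the null average, the 5 with the smallest p in each other comparison and those whose probe sets disagree. Of the wider list, the 3 smallest p on each side are named for the null average and 2 for the lines. Alternatives changed the pseudocount, filter, scaling, spread estimate, replicate block, arrays, grouping and probe set.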

Additional observations from a re-analysis of the deposited data

How the results depend on the processing

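With 6 arrays the precision is limited by their number, and the standard error was largest for Bmi1 (0.48), Hdac3 (0.29) and Smarcc1 (0.26). None of the chromatin factors passed in any of 60 alternatives over the 4 comparisons, the lowest adjusted p among the named ones being 0.143 (Rnf2 in line 2, with a spread that follows the signal). Changes of filter, spread estimate, replicate block or grouping leave the log2 difference of a gene as it is, so they could not turn its direction. Of 383 tested alternatives for the named genes, these included, 380 kept their direction. The 3 that did not used the dimmest probe set of the gene: Cbx5 in the null average (0.052), Smarca5 in line 1 (-0.066) and Rnf2 in line 2 (0.091). The cause was not tested. A further probe set of Rnf2, 93164_at, is neither its brightest nor its dimmest and was not among these alternatives. By 93164_at, line 2 minus wild type was 0.19 and line 1 minus line 2 was -0.32, both opposite in sign to the brightest probe set. Sizes depended on single arrays. Without the first and without the second wild-type array, the null average was 0.62 and 0.16 for Kat2a, 0.080 and 0.52 for Ezh1, 0.60 and 0.18 for Cbx1, 0.41 and 0.14 for Cbx2, -0.47 and -0.16 for Hdac5, 0.33 and 0.12 for Ctcf, and 0.30 and 0.11 for Hdac1. Kat2a in line 1 was 0.39 without the second wild-type array. Cbx1 was 0.25 without the first array of line 2, and Rnf2 between the lines was 0.44 without the first array of line 1. The deviations of same-numbered arrays from their line means correlated weakly (r = 0.0530 to 0.0948 over the 3 pairs of lines). With 2 arrays per line these deviations mirror each other, so arrays of unlike number give the same r with the sign turned. The positive sign is at most a weak hint from the data and not the design. With a replicate block the calls over all probe sets were 14 in the null average and 0 between the lines, against 31 and 2 without it, and no chromatin factor was called.

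Calls over all probe sets moved with most choices. In the null average (31) they were 54 with a pseudocount of 16, 8 without the filter, 64 with the filter at the 60th percentile, 101 with a spread that follows the signal, and 7 to 13 without 1 array. In line 1 (10) they were 5 without the filter, 17 with the stricter filter, 42 with the spread that follows the signal, and 4 to 9 without 1 array. In line 2 (19) they were 31 and 11 with pseudocounts of 16 and 0.5, 5 and 59 with no and the stricter filter, 92 with the spread that follows the signal, 10 with only the arrays compared, and 0 to 10 without 1 array, with 0 without the first wild-type array. Between the lines (2) they were 1 with a pseudocount of 16, the stricter filter or quantile normalization, and 0 without the filter, with only the arrays compared or without any 1 array.

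The median log2 difference of the chromatin factors was 0.13 within experiment 2 and 0.03 within experiment 1 in the null average (0.07). In line 1 (0.08) it was 0.0069 and 0.16 within experiments 1 and 2, and 0.028 to 0.12 without 1 array. In line 2 (0.07) it was 0.019 and 0.13 within the experiments, 0.11 by the dimmest probe sets, and -0.0080 to 0.12 without 1 array. Between the lines (0) it was 0.039 within experiment 2 and -0.035 to 0.061 without 1 array.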
